A study of Mus musculus with 6 samples.

Results

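The genes described here are p53 and 9 of its best known target genes and regulators, read in mouse embryonic stem cells labelled as having lost Rybp, its homologue Yaf2, or both. They were chosen by name: Trp53, Mdm2, Cdkn1a, Ccng1, Trp53inp1, Bax, Bbc3, Pmaip1, Sesn2 and Phlda3, with every probe set annotated to one of them alone. Of the 10 genes, 8 had such a probe set, 15 probe sets in all, out of 18193 genes and 34945 probe sets that carry a single gene name. Trp53 and Bax had none in the annotation used here, so the levels of p53's own transcript and of Bax are not analysed here.

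The 6 Affymetrix arrays come from 3 cell clones of a 129/B6 hybrid background. Clone 3031 has wild-type Yaf2 (Yaf2wt), and clones 3086 and 3087 are labelled both as Yaf2 knockdown and as Yaf2 mutant (Yaf2kd). Each clone gave 1 array without 4-hydroxytamoxifen (OHT-), labelled as having wild-type Rybp, and 1 array after 24 hours of 0.8 µM 4-hydroxytamoxifen (OHT+), a treatment given to remove Rybp, and these cells are labelled both as depleted of Rybp and as Rybp knockout. Each treatment thus has 1 Yaf2wt array and 2 Yaf2kd arrays. The Yaf2wt state rests on a single clone, so Yaf2 status and clone cannot be told apart. No array tests 4-hydroxytamoxifen on cells that cannot lose Rybp, so the drug and the loss of Rybp cannot be told apart either. Nothing says that the arrays of a clone came from separate cultures. The p-values reflect the spread of these arrays alone, which includes differences between the clones and may be technical in part. The cells grew with LIF on irradiated fibroblast feeders or on gelatin, and the labels do not tie either surface to an array. They name neither the way Yaf2 was reduced nor what drives the recombinase.

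p53 is a transcription factor that is held at a low level by the ubiquitin ligase Mdm2, itself a p53 target, and is stabilised by DNA damage and other stress. It switches on genes that stop the cell cycle, such as Cdkn1a, and genes that trigger death through mitochondria, such as Bbc3 and Pmaip1. Mouse embryonic stem cells are known for much p53 protein and for a weak arrest after damage. RYBP has reported links to MDM2, p53 and apoptosis, which is the question these genes address here. Since p53 is regulated mainly as a protein, the arrays read only the transcripts of its targets.

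All 12 measured markers of embryonic stem cells, among them Pou5f1, Nanog and Sox2, were above the median probe set by mean signal on these arrays. Of 15 measured fibroblast markers, which feeder cells would carry, 5 were below it, here called dim, among them Lum and Dcn. With OHT, 9 of the 12 and 13 of the 15 were higher, against 9011 of 18193 genes. None passed the test (limma, adjusted p under 0.05). At an unadjusted p under 0.05 there were 7 of the 12 and 5 of the 15, against 10% of genes. The summed intensity of the stem cell markers lay between 107001 and 113400 on the OHT- arrays and between 115333 and 122432 on the OHT+ arrays, and that of the fibroblast markers between 18345 and 20117 and between 19286 and 22166. The part of either shift in the differences below was not tested, and fewer cells of a type and less RNA per cell cannot be told apart in such samples. A probe set that is annotated to Rybp together with its pseudogene had an intensity of 2014 ± 239 (SD, n = 3) on the OHT- arrays and 85.8 ± 27.7 on the OHT+ arrays, whereas a second such probe set was at 242 ± 82.4 and 3162 ± 332. The Yaf2kd arrays held 34.9% and 37.7% of the Yaf2wt intensity in the 2 Yaf2 probe sets.

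Promoter sequence was read to show what lies in front of the members, since p53 acts through DNA. Of the 10 genes, 8 had an entry in the RefSeq promoter table (build GRCm38.p6), with 11 annotated starts. In the 250 bases before the start, the decamer consensus of which p53 response elements are built, which reads the same on both strands, was matched in full at 5 of these 11 starts and at 7.13% of all 32851 starts in the table. With 1 mismatch allowed outside the central C and G, 7 of the 11 starts and 44.7% of all starts held a match. The 3 measured members with a full match are shown with the matched bases in capitals, and Sesn2, which had no match, was added after its values were seen. Phlda3 and the 3 starts of Bbc3, not shown, had 0 full matches too, with OHT estimates of either sign. Each sequence runs 5′ to 3′ on the strand of the gene and ends at the base before the start.
Mdm2, chr10:117710759-117711008, minus strand: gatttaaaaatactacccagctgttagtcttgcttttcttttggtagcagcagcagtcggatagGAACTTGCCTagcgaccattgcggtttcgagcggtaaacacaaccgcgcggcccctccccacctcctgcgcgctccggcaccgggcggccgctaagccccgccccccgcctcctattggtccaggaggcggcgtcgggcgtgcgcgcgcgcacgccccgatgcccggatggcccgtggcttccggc
Cdkn1a, upstream start, chr17:29090729-29090978, plus strand: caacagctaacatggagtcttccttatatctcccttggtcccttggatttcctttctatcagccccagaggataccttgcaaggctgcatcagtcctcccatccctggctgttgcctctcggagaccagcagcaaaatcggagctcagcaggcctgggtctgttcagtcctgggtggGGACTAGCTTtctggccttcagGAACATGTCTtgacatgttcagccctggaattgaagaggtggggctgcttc
Ccng1, chr11:40755287-40755536, minus strand: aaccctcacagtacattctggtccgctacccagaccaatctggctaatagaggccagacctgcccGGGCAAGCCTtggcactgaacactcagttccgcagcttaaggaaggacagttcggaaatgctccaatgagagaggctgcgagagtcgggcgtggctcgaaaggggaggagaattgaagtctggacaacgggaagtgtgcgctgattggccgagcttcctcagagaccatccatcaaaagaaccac
Sesn2, chr4:132510457-132510706, minus strand: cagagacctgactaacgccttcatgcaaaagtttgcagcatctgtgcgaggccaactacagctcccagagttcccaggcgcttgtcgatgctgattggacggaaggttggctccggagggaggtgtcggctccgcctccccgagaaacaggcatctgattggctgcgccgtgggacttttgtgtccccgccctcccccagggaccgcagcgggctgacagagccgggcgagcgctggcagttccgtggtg
Cdkn1a has a further annotated start downstream of the one shown, with 0 matches in its 250 bases, and the upstream start holds 2 full matches. A match is a description of the letters in this window and not a measured binding site.

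With OHT, 0 of the 15 member probe sets passed the test (limma, adjusted p under 0.05 with all 45037 non-control probe sets), in a comparison that called 0.14% of all probe sets. At an unadjusted p under 0.05 there were 4, against 7.99% of all probe sets. Of the 15, 10 were higher and 5 lower, with a median difference of 0.15 (log2), where the median over all probe sets was -0.0073. Higher in each of the 3 clones were 5, for which the share over all probe sets was 15%, and lower in each of the 3 clones were 2, for which it was 16.2%. The 5 belong to Cdkn1a, Ccng1, Trp53inp1 and Pmaip1, and the 2 to Sesn2. Among the 22518 probe sets that were not dim, as 14 of the 15 were, these shares were 16.9% and 18.8%. In that set all OHT+ arrays stood above all OHT- arrays in 6.99%, and below them in 7.34%. For the 14 member probe sets that were not dim, the 95% interval of the OHT difference lay within a 2-fold change in either direction in all 14.

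**Figure D1:**
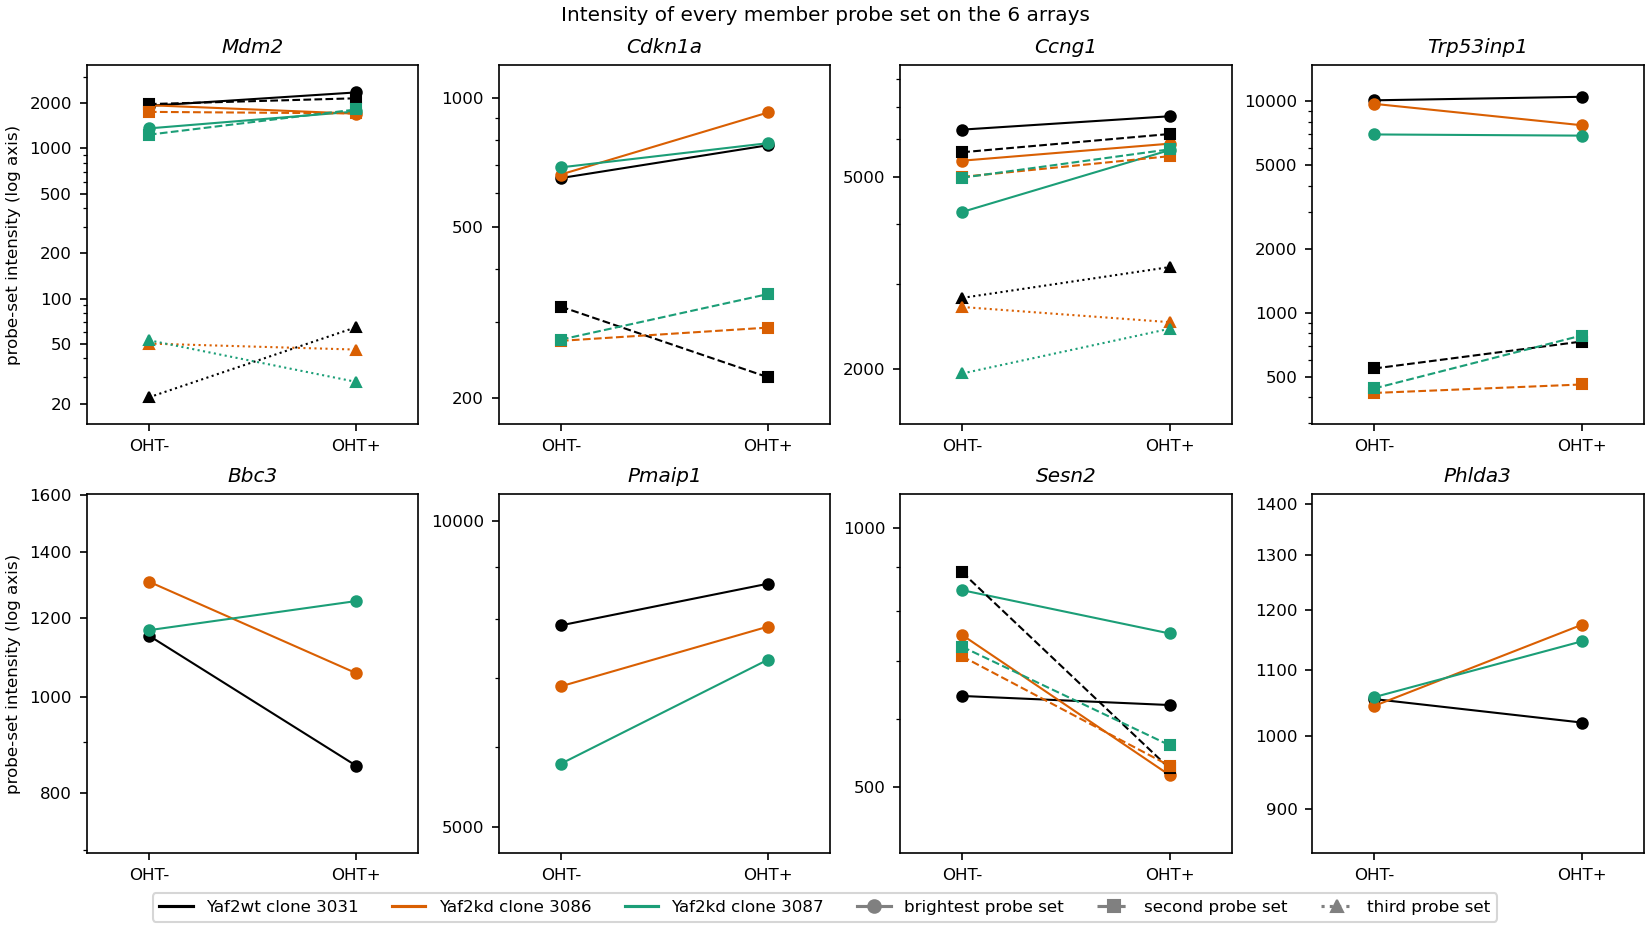
Probe-set intensity (vertical log axis, a range of its own in each panel) of the 8 measured members without and with OHT. Lines join the 2 arrays of a clone, colours give the clone and symbols the probe set; each clone's line goes up for the brightest Cdkn1a probe set and for Pmaip1, and down for both Sesn2 probe sets.

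Mdm2, the ligase that marks p53 for destruction, has 2 bright probe sets and 1 dim one. Probe set 1423605_a_at was at 1915 without OHT and 2353 with it in the Yaf2wt clone, at 1934 and 1698 in clone 3086, and at 1356 and 1757 in clone 3087. Probe set 1427718_a_at was at 1967 and 2150, 1746 and 1706, and 1231 and 1812, in the same order. Both were higher with OHT in clones 3031 and 3087 and lower in clone 3086, and the OHT+ and OHT- arrays overlapped. Their limma differences were 0.16 ± 0.13 (log2 ± SE, adjusted p 0.811) and 0.22 ± 0.13 (adjusted p 0.729). The third, 1457929_at, lay between 22.0 and 64.5 on the 6 arrays, among the dim probe sets, and its differences with OHT ran from -0.92 to 1.55 across the clones. At that signal no direction could be read. Without clone 3087 the differences of the 2 bright probe sets were 0.05 each, and without clone 3086 they were 0.34 each.

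Cdkn1a encodes the cyclin-dependent kinase inhibitor p21, through which p53 arrests the cell cycle. Its brighter probe set, 1424638_at, was at 651, 664 and 689 on the OHT- arrays of clones 3031, 3086 and 3087, and at 777, 926 and 785 on their OHT+ arrays. The groups did not overlap, a pattern in which all OHT+ arrays stood above all OHT- arrays that 6.13% of all probe sets showed. The difference was 0.31 ± 0.12 (log2 ± SE, 95% interval 0.04 to 0.57), with an unadjusted p of 0.0262 and an adjusted p of 0.555 in limma. The other probe set, 1421679_a_at, did not follow it. It was at 326 without OHT and 223 with it in the Yaf2wt clone, at 272 and 292 in clone 3086, and at 273 and 349 in clone 3087. It was thus lower with OHT in the Yaf2wt clone and higher in both Yaf2kd clones, with a difference of -0.03 ± 0.20 over the 3 clones (adjusted p 0.985). The 2 probe sets of 1 gene therefore disagreed in direction in clone 3031.

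Ccng1, which encodes cyclin G1, a p53-induced regulator of Mdm2, had 3 bright probe sets. Probe set 1420827_a_at was at 6281, 5415 and 4238 without OHT and at 6695, 5873 and 5696 with it, in the clone order 3031, 3086 and 3087. Probe set 1450016_at was at 5637, 5011 and 4992 without OHT and 6151, 5532 and 5717 with it. Both were higher with OHT in every clone, yet the OHT- array of the Yaf2wt clone stood above at least 1 OHT+ array of the Yaf2kd clones, so the groups overlapped. Probe set 1450017_at was higher with OHT in clones 3031 and 3087 and lower in clone 3086, at 2811, 2691 and 1958 without OHT and 3256, 2503 and 2425 with it. The differences of the 3 probe sets were 0.21 ± 0.10, 0.15 ± 0.07 and 0.14 ± 0.12 (log2 ± SE), with adjusted p of 0.656, 0.655 and 0.820 in limma. Without clone 3087, the clone with the widest step, the difference of 1420827_a_at was 0.10, and that of 1450017_at was 0.05.

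Phlda3, a p53-induced repressor of the survival kinase Akt, had the narrowest range of the 15, with its highest value 1.15 times its lowest. It was at 1055, 1045 and 1058 without OHT and at 1020, 1175 and 1147 with it. It was lower with OHT in the Yaf2wt clone and higher in both Yaf2kd clones, with a difference of 0.08 ± 0.10 (95% interval -0.15 to 0.30, adjusted p 0.892), which was 0.14 without clone 3031 and 0.03 without clone 3086.

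Among the genes of apoptosis, Pmaip1, which encodes the BH3-only protein Noxa, was bright on every array. Its single probe set was at 7893, 6876 and 5771 without OHT and 8675, 7872 and 7306 with it, in the clone order 3031, 3086 and 3087. It was higher with OHT in every clone, although the Yaf2wt OHT- array stood above both Yaf2kd OHT+ arrays. The difference was 0.22 ± 0.09 (log2 ± SE, 95% interval 0.02 to 0.43), with an unadjusted p of 0.0344 and an adjusted p of 0.588, and it was 0.14 without the OHT- array of clone 3087. Bbc3, which encodes the BH3-only protein Puma, was at 1153, 1307 and 1167 without OHT and 851, 1056 and 1249 with it. It was lower with OHT in clones 3031 and 3086 and higher in clone 3087, with a difference of -0.22 ± 0.12 (adjusted p 0.708), which was -0.10 without either Yaf2wt array and -0.37 without clone 3087. Thus the 2 BH3-only members had estimates of opposite sign, and neither passed.

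Trp53inp1, a stress-induced nuclear protein that promotes p53's pro-apoptotic activity, had 2 probe sets that differed in level and in their difference with OHT. The bright one, 1416926_at, was at 10129, 9746 and 6984 without OHT and at 10524, 7723 and 6895 with it, a difference of -0.10 ± 0.12 (adjusted p 0.888). The other, 1416927_at, was at 546, 418 and 439 without OHT and at 732, 459 and 782 with it, higher in every clone. Its difference of 0.46 ± 0.19 (log2 ± SE, 95% interval 0.04 to 0.88) was the highest of the 15, with an unadjusted p of 0.0340 and an adjusted p of 0.587. Without the OHT+ array of clone 3087 it was 0.24, and without that of clone 3086 it was 0.68. The OHT+ array of clone 3086 lay below the OHT- array of the Yaf2wt clone, so the groups overlapped. The transcripts behind either probe set were not analysed here.

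Sesn2, a stress-induced inhibitor of mTORC1 signalling, stood on the other side. Probe set 1425139_at was at 888, 709 and 727 without OHT and at 525, 529 and 559 with it. All 3 OHT+ arrays lay below all 3 OHT- arrays, which 6.4% of all probe sets showed, and the OHT+ arrays differed little among themselves. The difference was -0.52 ± 0.13 (log2 ± SE, 95% interval -0.80 to -0.24), with the lowest unadjusted p of the members, 0.00225, and an adjusted p of 0.274. The other probe set, 1451599_at, was at 638, 751 and 847 without OHT and 622, 516 and 754 with it. It too was lower in every clone, but by only -0.04 in the Yaf2wt clone, where 1425139_at was lower by -0.76, and its difference was -0.25 ± 0.16 (adjusted p 0.749). That difference was -0.06 without the OHT+ array of clone 3086 and -0.10 without both arrays of that clone. The groups overlapped in this probe set.

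**Figure D2:**
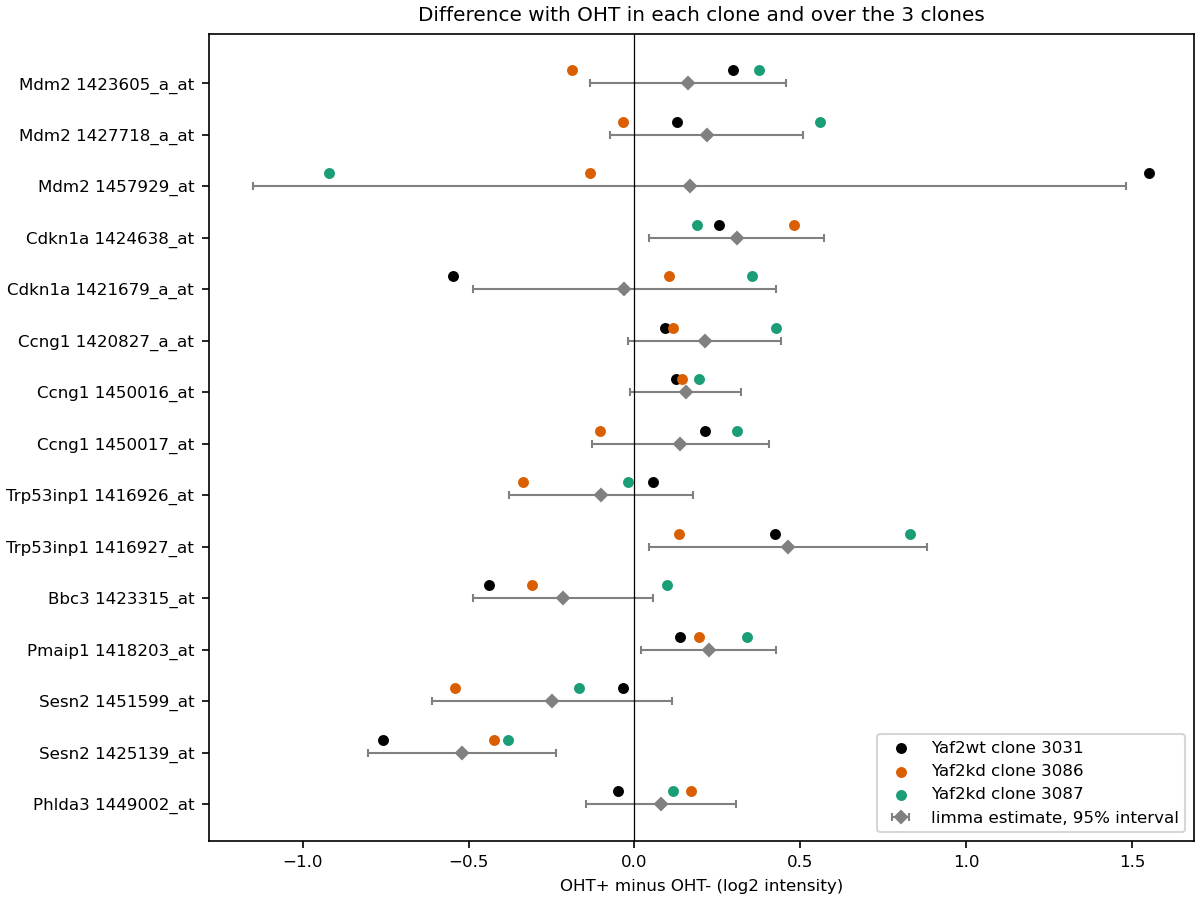
Difference with OHT (horizontal axis, log2 intensity) of the 15 member probe sets. Coloured points are the 3 clones and grey diamonds the limma estimate over them with its 95% interval; the interval leaves out 0 for 1 probe set each of Cdkn1a, Trp53inp1, Pmaip1 and Sesn2, and none passed the adjusted test.

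The 3 clones differed in how the members moved. In the Yaf2wt clone 3031, which has no replicate, the median OHT difference over the 15 probe sets was 0.13 (10 higher, 5 lower). In clone 3086 it was -0.03 (7 higher, 8 lower), and in clone 3087 it was 0.20 (11 higher, 4 lower). Over all probe sets 48.7%, 49.2% and 49.6% were higher with OHT in these clones. The 2 clones that share the Yaf2kd label thus lay on opposite sides of clone 3031. On the OHT- array of clone 3087, 6 of the 15 had their lowest value of the 6 arrays, namely both bright Mdm2 probe sets, all 3 of Ccng1 and that of Pmaip1; that array held the lowest value of 19.2% of all probe sets. The OHT+ array of the Yaf2wt clone held the highest value of 8 of the 15, against 15.4% of all probe sets, and the lowest value of 4, against 17.6%. The 6 and the 8 were the largest counts of their kind among the 6 arrays, and no array had been named in advance. Several of these probe sets belong to the same gene, so they are not separate members.

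In the Yaf2kd cells alone, with 2 OHT+ arrays against 2 OHT- arrays, 0 of the 15 passed in limma, and 0.0377% of all probe sets did. At an unadjusted p under 0.05 there was 1, against 6% of all probe sets. It was Sesn2 1425139_at, with a difference of -0.40 ± 0.16 (log2 ± SE, adjusted p 0.812). Cdkn1a 1424638_at was at 0.33 ± 0.16 (adjusted p 0.859) and Pmaip1 at 0.27 ± 0.12 (adjusted p 0.846). These arrays are also part of the comparison over the 3 clones, so their values are not a second measurement of it.

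Whether the OHT difference depends on Yaf2 was tested directly, as the OHT effect in Yaf2kd minus that in Yaf2wt. None of the 15 passed in limma, where 0% of all probe sets did, and 0 reached an unadjusted p under 0.05, against 2.39% of all probe sets. The widest of the bright probe sets was Cdkn1a 1421679_a_at, at 0.78 ± 0.40 (log2 ± SE, 95% interval -0.14 to 1.69). It was lower with OHT in the Yaf2wt clone and higher in both Yaf2kd clones. Phlda3 had the same pattern, at 0.19 ± 0.24. With 1 Yaf2wt array in each condition, the lone arrays were assumed to vary like the Yaf2kd ones. The 95% interval of this difference lay within a 2-fold change in either direction for 11 of the 14 brighter probe sets and reached past it for 3.

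The level of several members was lower in the Yaf2kd cells than in the Yaf2wt clone, whichever the treatment. All 4 Yaf2kd arrays lay below both Yaf2wt arrays in 5 of the 15 probe sets, a pattern that 9% of all probe sets showed, and all 4 lay above both in 0, against 9.16%. Among probe sets that were not dim these shares were 11% and 11.3%. The 5 were Mdm2 1427718_a_at, Ccng1 1420827_a_at and 1450017_at, Trp53inp1 1416926_at and Pmaip1. Mdm2 1427718_a_at was at 2059 ± 129 (SD, n = 2) in Yaf2wt and 1624 ± 265 (n = 4) in Yaf2kd arrays. Ccng1 1420827_a_at was at 6488 ± 293 and 5305 ± 736, and Pmaip1 at 8284 ± 553 and 6956 ± 889. Trp53inp1 1416926_at was at 10326 ± 279 and 7837 ± 1326. The marker lists also held differences with Yaf2 status, in both directions. Of the 15 fibroblast markers 12 had a higher mean in Yaf2kd, such as Acta2 at 2950 in Yaf2wt and 4552 in Yaf2kd. A lower mean was found for 3, such as Fn1 at 11157 and 9575. Of the 12 stem cell markers 9 had a lower mean, such as Klf4 at 4273 and 2766, and 3 a higher one, such as Utf1 at 6293 and 6749. In either list 0 passed the test within a treatment. The summed intensity of the fibroblast list ran from 18651 to 19286 in Yaf2wt and from 18345 to 22166 in Yaf2kd. That of the stem cell list ran from 113400 to 122432 and from 107001 to 115976, and the ranges overlapped in both lists. The fibroblast sum is weighted most by Fn1, the brightest marker of that list on every array. Fn1 ran from 10851 to 11463 in Yaf2wt and from 8127 to 11139 in Yaf2kd, with its mean against the direction of the 12. The overlap of that sum therefore does not show that the other fibroblast markers were alike in Yaf2wt and Yaf2kd. A sum without Fn1 was not tested. The part of the marker lists in the members' lower levels was not tested. The arrays of a clone share that clone, so these are 2 clones against 1, and the tests that follow use the same arrays.

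Tested within each treatment, none of the 15 passed. Without OHT, 11 of the 15 were lower in Yaf2kd, with a median of -0.26 (log2) against -0.0089 over all probe sets, and limma called 0 of them and 0% of all probe sets. At an unadjusted p under 0.05 there was 1, against 4.01% of all probe sets. It was Ccng1 1420827_a_at, at -0.39 ± 0.17 (log2 ± SE, adjusted p 0.999). With OHT, 9 of the 15 were lower, with a median of -0.19, and limma called 0 of them and 0% of all probe sets, with 1 at an unadjusted p under 0.05 against 5.38% of all probe sets. That one was Trp53inp1 1416926_at, at -0.53 ± 0.20 (95% interval -0.99 to -0.07, adjusted p 0.923). Bbc3 lay on the other side with OHT, at 0.43 ± 0.19 (adjusted p 0.923), and at 0.10 ± 0.19 without it. The 2 Cdkn1a probe sets were at 0.06 ± 0.20 and -0.26 ± 0.28 without OHT and at 0.13 ± 0.20 and 0.52 ± 0.28 with it.

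**Figure D3:**
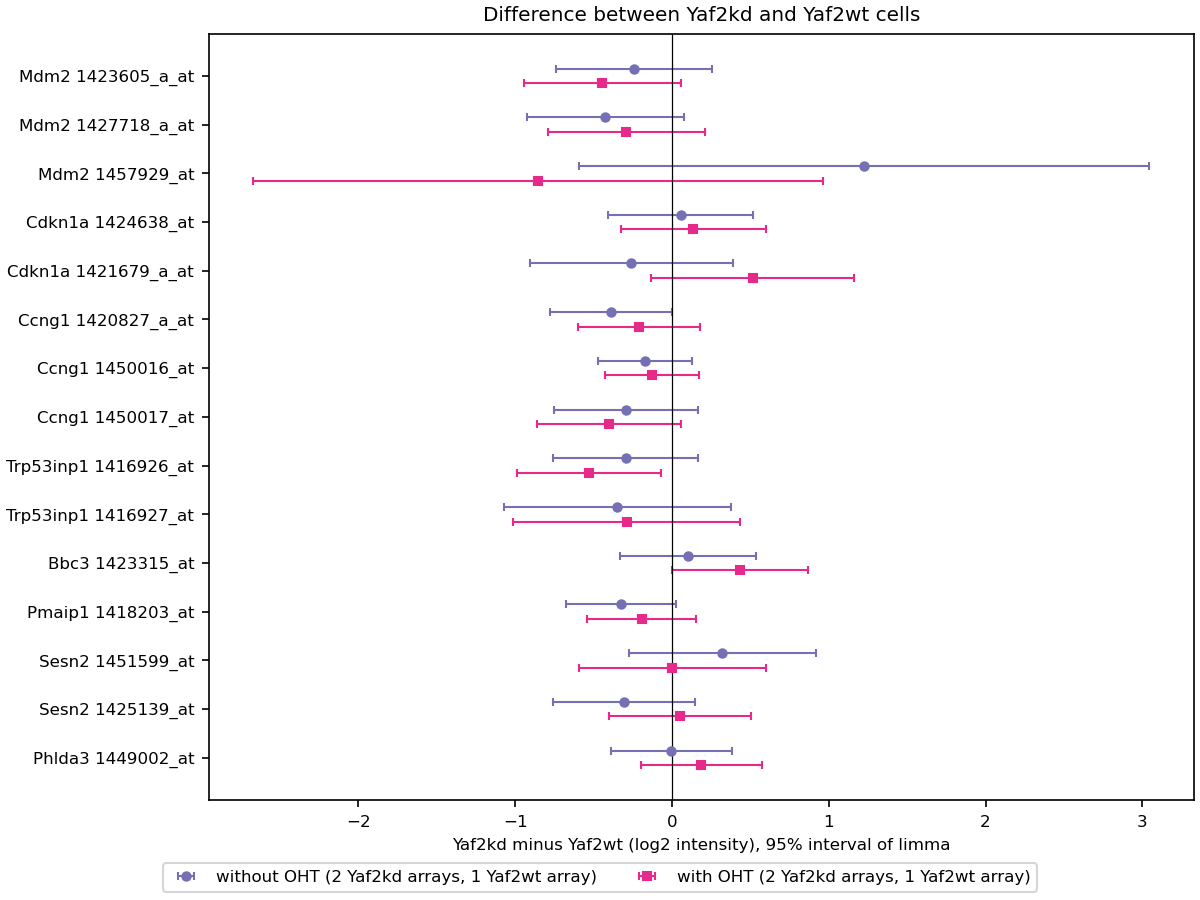
Difference between Yaf2kd and Yaf2wt cells (horizontal axis, log2 intensity) of the 15 member probe sets, with the 95% interval of limma, without OHT (circles) and with it (squares). Most points of Mdm2, Ccng1, Trp53inp1 and Pmaip1 lie left of 0 and most intervals reach across it; the Yaf2wt side is 1 array per treatment.

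In Yaf2kd OHT+ against Yaf2wt OHT- cells, the comparison that combines the Yaf2kd label with OHT, 0 of the 15 passed in limma, which called 0.00444% of all probe sets, and 2 had an unadjusted p under 0.05, against 6.11% of all. These were Sesn2 1425139_at, at -0.71 ± 0.20 (log2 ± SE, adjusted p 0.743), and Trp53inp1 1416926_at, at -0.47 ± 0.20 (adjusted p 0.811). Cdkn1a 1424638_at was at 0.39 ± 0.20 (95% interval -0.07 to 0.85, adjusted p 0.841). Pmaip1 was at -0.06 ± 0.15 and the 2 bright Mdm2 probe sets at -0.15 ± 0.22 and -0.16 ± 0.22, so the OHT and Yaf2 differences of these genes had opposite signs.

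Wider pathway lists gave the setting of the members, with the brightest probe set of each gene. Of 122 genes in 8 lists 112 were measured, 5 of them dim. With OHT 0 of the 112 passed, where 0.214% of genes did. At an unadjusted p under 0.05 there were 10, with 6 higher and 4 lower, against 10% of genes. Higher in all 3 clones were 19 of the 112, against 16.8% of genes, and lower in all 3 were 20, against 17.6%.

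The arrest and DNA repair targets of p53 had 16 measured genes, of which 11 had a higher and 5 a lower value after OHT, and their median was 0.09 (log2) where all genes had -0.0031. Higher in all 3 clones were 6 of them, and lower in all 3 were 2. Plk3, a stress-activated polo-like kinase, was at 497, 539 and 696 without OHT and at 716, 891 and 944 with it. Its OHT+ arrays all stood above its OHT- arrays, which 6.13% of all probe sets showed. Genes of these lists were named for a large OHT difference in 1 direction in all 3 clones, which makes such a pattern more likely. The difference of Plk3 was 0.56 ± 0.13 (log2 ± SE, adjusted p 0.246), the lowest adjusted p of the 112 genes. Its relative Plk2 was at 0.38 ± 0.16 (adjusted p 0.614). The apoptosis targets had 13 measured genes with a median of 0.03, among them Ei24, at 0.18 ± 0.10 (adjusted p 0.714), and the death-domain gene Pidd1, at -0.17 ± 0.17 (adjusted p 0.851).

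The metabolic, stress and secreted targets had 15 measured genes with a median of 0.03. Sesn3, of the same family as Sesn2, was at 969, 811 and 759 without OHT and 749, 545 and 602 with it. Every OHT+ array was below every OHT- array, which 6.4% of all probe sets showed. The rule for naming Sesn3 makes such a pattern more likely. The difference was -0.43 ± 0.11 (log2 ± SE, adjusted p 0.331). The third sestrin gene, Sesn1, outside the rule for naming and chosen after its values were seen, was at -0.22 ± 0.20 (adjusted p 0.834). Its clones disagreed, at 488, 536 and 596 without OHT and 611, 477 and 340 with it. Sesn1 was thus higher with OHT in clone 3031 and lower in clones 3086 and 3087, with the widest step in clone 3087. Ccng2, a relative of Ccng1, was at 0.19 ± 0.11 (adjusted p 0.721).

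The regulators and cofactors of p53 had 28 measured genes with a median of 0.0064, 15 higher and 13 lower. The apoptosis-stimulating cofactor gene Trp53bp2 was at -0.33 ± 0.14 (log2 ± SE, adjusted p 0.595) and the acetyltransferase gene Crebbp at -0.32 ± 0.12 (adjusted p 0.560). Of the 2 other p53 family genes, Trp63 was dim and Trp73 was at 0.24 ± 0.32 (adjusted p 0.894).

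Among 12 measured genes of the BCL2 family, which set the threshold of mitochondrial death, 6 had a higher and 6 a lower value after OHT, and their median was -0.04. The anti-apoptotic gene Bcl2 was at 326, 280 and 305 without OHT and at 207, 241 and 126 with it. Its OHT+ arrays all lay below its OHT- arrays, which 6.4% of all probe sets showed. The rule for naming Bcl2 makes such a pattern more likely. The difference was -0.72 ± 0.25 (log2 ± SE, adjusted p 0.504), with the widest step in clone 3087. The BH3-only gene Hrk was at -0.32 ± 0.14 (adjusted p 0.627). Death receptor and caspase genes, 11 of them measured, had a median of -0.02, with the caspase-8 inhibitor gene Cflar at -0.47 ± 0.24 (adjusted p 0.668) and the cytochrome c gene Cycs at 0.32 ± 0.14 (adjusted p 0.604). The cell cycle genes that p53 lowers through p21 had 15 measured members and a median of 0.06, 10 higher and 5 lower, among them Foxm1 at -0.29 ± 0.17 (adjusted p 0.728) and Bub1 at 0.16 ± 0.08 (adjusted p 0.673). Thus no list of the pathway held a gene that passed in this comparison.

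**Figure D4:**
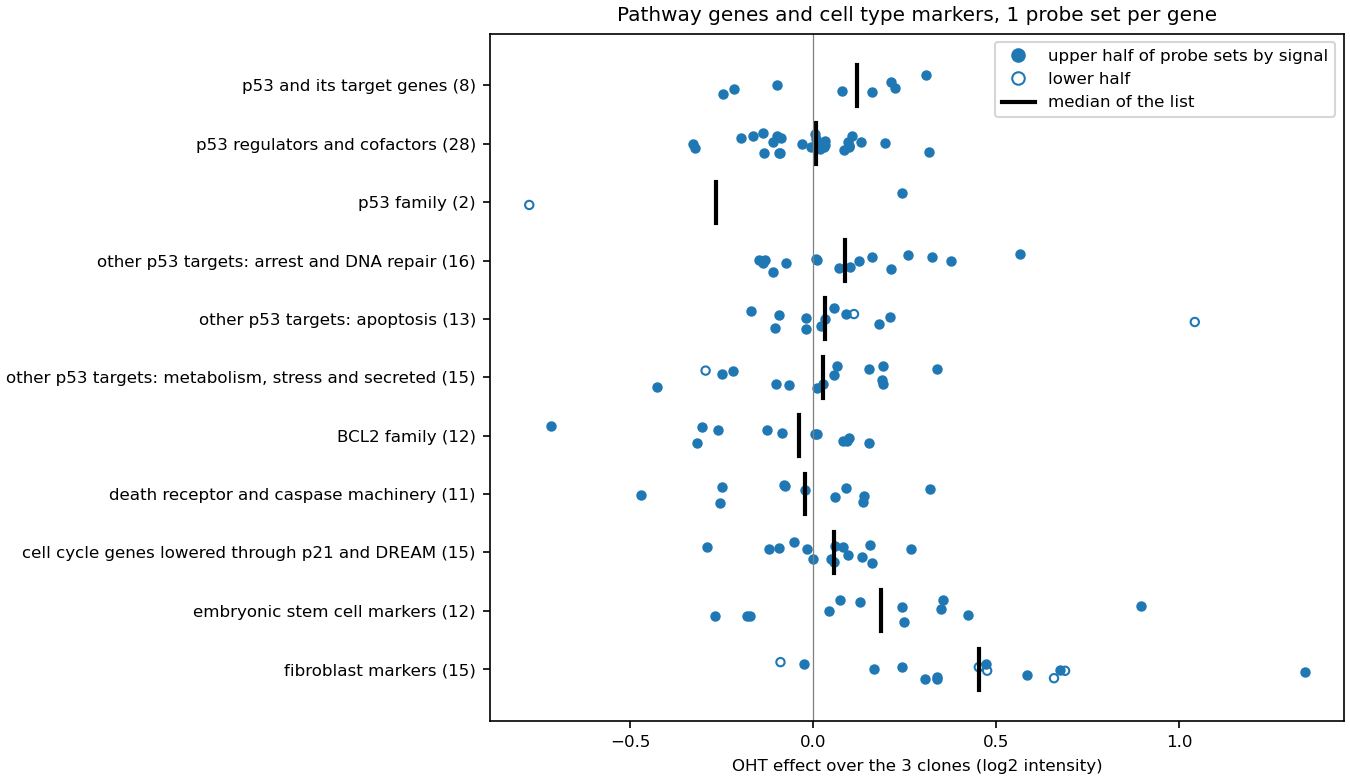
OHT effect over the 3 clones (horizontal axis, log2 intensity) of the genes in each list, 1 point per gene with the number of genes in brackets; open points are dim and bars are medians. Apart from the 2 genes of the p53 family, the p53 lists centre near 0. They lie between -0.04 for the BCL2 family and 0.12 for the 8 members. The fibroblast markers centre at 0.45, or at 0.34 for the 10 that are not dim, and the stem cell markers at 0.19.

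The genes whose profile over the 6 arrays was most like that of Cdkn1a 1424638_at were Gosr1, Tmx4 and Gulo. They differed from it by a root mean square of 0.0222, 0.0248 and 0.0264 (log2, each gene centred on its mean), among 11156 genes that were not dim. The highest value of Cdkn1a 1424638_at was only 1.42 times its lowest, and the other Cdkn1a probe set did not follow it. Some genes are nearest to any profile of 6 values, and whether these 3 move with Cdkn1a was not tested.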

How the data were processed

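RNA of 6 samples was hybridised to Affymetrix arrays. The deposited values are linear probe-set intensities, made by the authors with RMA in Affymetrix Expression Console, per the submitters' processing notes (without versions). The sorted values are identical on all 6 arrays, as quantile normalization leaves them, so no depth is recorded and 6 arrays set the precision. Of 45101 probe sets, 64 controls were left out. Symbols came from the platform annotation: 34945 probe sets had 1 symbol, 932 several and 9160 none.

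log2 intensities were fitted over the 45037 others with limma 3.58.1 (lmFit, eBayes with intensity trend) in R 4.3.3, with Benjamini-Hochberg adjustment. The design had been written for log2 values, so the log was taken here. The OHT effect used Yaf2 status and OHT as terms, and the other comparisons used the 4 groups. The fit was tested on simulated data with independent arrays and no clone effect. That test does not bear on differences between clones. Dim means below the median probe set by mean signal. Samples with and without OHT pair by clone: deviations from the OHT means correlated at 0.41, 0.14 and 0.26 in clones 3031, 3086 and 3087. These means span both Yaf2 states, and within the Yaf2kd groups the correlation was 0.15. The main fits did not use the pairing, and the alternative with clone as a block did. The alternatives were no trend, a pseudocount of 16, dim probe sets left out, the brightest probe set per gene, clone as a block, and each array or clone left out.

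Members and lists were chosen with earlier results of these data known. Genes outside the members were named where they passed. Where fewer than 2 of a list did, those with the largest OHT difference that were not dim and had 1 direction in all 3 clones were added, up to 2.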

Additional observations from a re-analysis of the deposited data

How the results depend on the processing

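Across the alternatives, 0 of the 15 member probe sets passed in any comparison. With clone as a replicate block, 0 passed with OHT, with an adjusted p of 0.197 for Sesn2 1425139_at and 0.437 for Cdkn1a 1424638_at, and the block changed no member call. Another setting brought Sesn2 1425139_at closer to the limit of 0.05 than the block did, without passing it. Over all probe sets the OHT calls went from 63 to 101 with the block, 97 with dim probe sets left out, 243 with both (a choice made after seeing the data) and 0 without the intensity trend. In Yaf2kd alone they went from 17 to 65, 35, 247 and 0, and were 7 (0.0155%) with the pseudocount and 10 (0.055%) with the brightest probe set per gene. For the combined loss they went from 2 to 14 (0.0622%) with dim probe sets left out, 4 (0.022%) with the brightest probe set and 0 without the trend. Leaving out an array gave 14 to 53, 0 to 17 and 0 to 7 calls, and comparisons that need a lone Yaf2wt array could not be fitted without it. The Yaf2 effect without OHT went from 0 to 1 with dim probe sets left out. Without clone 3031, 3086 or 3087 the OHT calls were 18, 205 and 293.

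Counts without a clone were added after seeing the data. Higher in both other clones were 7 member probe sets without clone 3031 (25.8% of all probe sets), 8 without clone 3086 (26.8%) and 5 without clone 3087 (26.3%). The OHT groups did not overlap for 9 without clone 3031 (34.9% of all), 4 without clone 3086 (33.2%) and 4 without clone 3087 (35.3%), where fewer arrays make this easier.

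Of 90 member values, 22 turned sign in some setting, by leaving out an array or a clone; the cause was not tested. Without clone 3031, or either of its arrays, the OHT effect was -0.53 for Mdm2 1457929_at and 0.23 for Cdkn1a 1421679_a_at, and without clone 3086 it was 0.018 for Trp53inp1 1416926_at. Leaving out each array gave these ranges. The OHT effect over the clones ran from -0.53 to 0.57 for Mdm2 1457929_at, -0.18 to 0.23 for Cdkn1a 1421679_a_at and -0.21 to 0.060 for Trp53inp1 1416926_at. The OHT effect in Yaf2kd ran from -0.16 to 0.35 for Mdm2 1423605_a_at, -0.13 to 0.33 for Ccng1 1450017_at, -0.42 to 0.063 for Trp53inp1 1416926_at and -0.23 to 0.016 for Bbc3 1423315_at. The Yaf2 effect without OHT ran from -0.50 to 0.014 for Mdm2 1423605_a_at and -0.014 to 0.0040 for Phlda3 1449002_at. The Yaf2 effect with OHT ran from -0.67 to 0.095 for Trp53inp1 1416927_at and -0.27 to 0.28 for Sesn2 1451599_at. The combined loss ran from -0.16 to 0.10 for Cdkn1a 1421679_a_at, -0.027 to 0.020 for Ccng1 1450016_at, -0.25 to 0.52 for Trp53inp1 1416927_at, -0.13 to 0.12 for Bbc3 1423315_at and -0.31 to 0.24 for Sesn2 1451599_at. The difference of the OHT effects ran from -0.46 to 0.053 for Mdm2 1423605_a_at, -0.12 to 0.39 for Mdm2 1427718_a_at, -0.039 to 0.20 for Cdkn1a 1424638_at, -0.34 to 0.12 for Ccng1 1450017_at, -0.47 to 0.0081 for Trp53inp1 1416926_at and -0.33 to 0.44 for Trp53inp1 1416927_at. The signs of these values are not settled by 6 arrays.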
